A study of Mus musculus with 91 samples.

Results

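The AMPA and NMDA receptor subunit genes examined here were Gria1, Gria2, Gria3 and Gria4, which encode the AMPA receptor subunits GluA1 to GluA4, and Grin1, Grin2a, Grin2b, Grin2d, Grin3a and Grin3b, which encode the NMDA receptor subunits GluN1, GluN2A, GluN2B, GluN2D, GluN3A and GluN3B. These 10 genes were chosen by name and are 10 of the 34745 rows of the deposited gene tables. They were measured in 91 single layer 5 pyramidal neurons (L5 Pyrs) of the primary visual cortex (V1) of young adult wild-type C57 mice. Each neuron was recorded in a brain slice and its soma with the nucleus was then drawn into the recording pipette for RNA sequencing (Patch-seq). The neurons were labelled as 47 Pyr←LP neurons, the type driven by the lateral posterior nucleus of the thalamus, and 44 Pyr←ORBvl neurons, the type driven by the ventrolateral orbitofrontal cortex. The study assigned the type with a classifier on the slope of the hyperpolarization-activated current Ih, and not from RNA, so a label stands for a predicted input and not for an input measured in the same neuron. Both groups were wild-type and were given no treatment in the labels.

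AMPA receptors are tetramers of GluA subunits that carry the fast part of the excitatory postsynaptic current. NMDA receptors need GluN1 together with GluN2 or GluN3 subunits. Those of GluN1 and GluN2 pass calcium and conduct well only when agonist is bound and the membrane is depolarized. In the rodent cortex GluN2B dominates early in life and GluN2A is added during postnatal development. GluA2 sets the calcium permeability of AMPA receptors, because the codon of its pore loop, the Q/R site, is changed in the RNA by adenosine deamination, and receptors that hold the edited subunit pass little calcium.

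The coding sequence around this codon is shown because its editing sets GluA2 apart from the other GluA subunits. Each line gives 71 bases of exon 11 of the transcript with the longest coding sequence (GENCODE M21, GRCm38), as encoded in the genome, 5′ to 3′ on the strand of the gene and up to the end of the exon, with the Q/R site codon in capitals.
Gria1: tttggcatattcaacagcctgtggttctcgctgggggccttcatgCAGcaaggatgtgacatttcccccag
Gria2: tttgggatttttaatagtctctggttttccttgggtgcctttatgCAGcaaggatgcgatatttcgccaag
Gria3: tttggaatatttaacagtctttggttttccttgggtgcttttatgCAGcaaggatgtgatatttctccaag
Gria4: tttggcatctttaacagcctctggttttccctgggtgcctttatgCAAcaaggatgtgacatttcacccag

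These stretches lie at chr11:57243049-57243119 on the plus strand for Gria1, chr3:80706888-80706958 on the minus strand for Gria2, chrX:41610220-41610290 on the plus strand for Gria3 and chr9:4464114-4464184 on the minus strand for Gria4. Of the 71 bases, 56 in Gria1, 64 in Gria3 and 61 in Gria4 were identical to Gria2 at the same position. The codon was CAG in Gria1, Gria2 and Gria3 and CAA in Gria4. The gene tables count reads per gene, so the edited and the unedited form of Gria2 were counted together, and a Gria2 level here is the level of both.

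The RefSeq loci of the AMPA receptor genes on GRCm38 were chr11:57011571-57330244 for Gria1, chr3:80681450-80804227 for Gria2, chrX:41400819-41678601 for Gria3 and chr9:4417893-4796234 for Gria4. The loci of the NMDA receptor genes were chr2:25291177-25319187 for Grin1, chr16:9567901-9996083 for Grin2a, chr6:135713221-136173615 for Grin2b, chr7:45831883-45871194 for Grin2d, chr4:49661611-49846023 for Grin3a and chr10:79970397-79977190 for Grin3b. The library kit does not mark strand, so reads from overlapping genes of opposite strands cannot be told apart. Exons of Grin1 overlap those of its antisense gene Grin1os over 1307 bases, and Grin1os had counts in 29 of the 91 neurons. Exons of Grin3b share 1059 bases with Tmem259, exons of Grin2d share 643 bases with Gm45441, and exons of Grin2b share 49 bases with Gm26653 and 143 bases with Gm14329. The counts of Grin1, Grin2d and Grin3b are therefore uncertain to the extent of these overlaps.

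Tests between the types used the 83 neurons that passed the study's exclusion rule as applied to the counts, 44 Pyr←LP and 39 Pyr←ORBvl neurons. That rule asked for at least 500 counts and for a sum of log2(count + 1) over the GABAergic genes Slc32a1, Gad1 and Gad2 of at most 7, and it left out 3 Pyr←LP and 5 Pyr←ORBvl neurons. No deposited neuron was below 500 counts, and the set kept here is not the set that passed the study's own quality control, which held fewer Pyr←LP neurons. The depth of a Pyr←LP neuron ran from 2545 to 1948982 counts (median 399786) and that of a Pyr←ORBvl neuron from 2410 to 1699215 (median 443593), with a median of 3214 and 3940 detected genes. The study recorded several neurons from the same mouse, and the labels do not say which mouse a neuron came from. Neurons were therefore taken as the replicates, the p-values measure the spread between neurons, and they are too small where neurons of a mouse are alike. The prefix of the neuron name was used as a batch, without knowledge of what it stands for, and 14 of the 17 prefixes held both types. Levels below are counts per 1000000 counts of the neuron (CPM), unless stated as FPKM or CPM per kb, and are given for the 83 neurons.

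As a check of the labelled cell type, the neuronal gene Snap25 had counts in 44 of 44 Pyr←LP and 39 of 39 Pyr←ORBvl neurons and Syt1 in 43 and 36. Of the cortical excitatory genes, Nrgn had counts in 44 and 39 neurons, Slc17a7, the vesicular glutamate transporter gene, in 32 and 31, Camk2a in 29 and 30 and Neurod6 in 18 and 9. The list of 8 GABAergic genes summed to a median of 12.3 CPM in Pyr←LP neurons (range 0 to 1002) and 781 CPM in Pyr←ORBvl neurons (range 0 to 3216). Of these 8 genes, Lamp5, which some pyramidal neurons also express, was detected in 15 of 44 Pyr←LP and 35 of 39 Pyr←ORBvl neurons. Without Lamp5, 18 neurons of each type had a count of the remaining 7 genes and the median sum was 0 CPM in both types. Of these 7 genes, Pvalb had counts in 11 Pyr←LP and 13 Pyr←ORBvl neurons, Gad1 in 6 and 6, Sst in 5 and 7 and Gad2 in 3 and 3. Slc32a1, Vip and Lhx6 each had counts in 1 Pyr←LP neuron and were at 0 in every Pyr←ORBvl neuron kept. Slc32a1, Gad1 and Gad2 were part of the exclusion rule that chose these neurons. Glial markers were also present. The 4 oligodendrocyte genes summed to a median of 799.6 CPM (range 0 to 8644) in Pyr←LP and 1629 CPM (range 2.81 to 23517) in Pyr←ORBvl neurons, mostly from Mbp, with Mog and Mag at 0 in every Pyr←LP neuron. The medians of the 5 astrocyte genes were 244 (range 0 to 10526) and 119 CPM (range 0 to 3631), and those of the 3 microglial genes 201 (range 0 to 6787) and 349 CPM (range 0 to 3709). Oligodendrocyte precursor genes were counted in 2 Pyr←LP neurons and 1 Pyr←ORBvl neuron. Detection of the subunit genes was split by these lists as a description. The astrocyte list was mostly Slc1a2, a glutamate transporter gene, with counts in 36 Pyr←LP and 25 Pyr←ORBvl neurons. Aldh1l1 had counts in 10 and 4 neurons, Gfap in 8 and 9, Mlc1 in 4 and 4 and Aqp4 in 2 and 1. Gria1 had a count in 16 of 37 Pyr←LP neurons with an astrocyte gene and 0 of 7 without, and in 15 of 31 and 3 of 8 Pyr←ORBvl neurons. Gria3 had a count in 18 of 37 and 2 of 7 Pyr←LP neurons and in 24 of 31 and 5 of 8 Pyr←ORBvl neurons by the same split. Grin2b had a count in 32 of 37 and 3 of 7 Pyr←LP neurons and in 28 of 31 and 7 of 8 Pyr←ORBvl neurons. Gria4 had one in 17 of 37 and 3 of 7, and in 8 of 31 and 3 of 8. By microglial genes, Gria3 had a count in 18 of 36 Pyr←LP neurons with one and 2 of 8 without, and in 26 of 36 and 3 of 3 Pyr←ORBvl neurons, while Gria1 had one in 13 of 36 and 3 of 8, and in 18 of 36 and 0 of 3. Oligodendrocyte genes were present in all but 2 neurons. The split of Gria1, Gria3 and Gria4 by GABAergic genes is given below, where Gria3 and Gria4 are read together. The part of these transcripts in the differences between the types was not tested.

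Gria2 was the most widely detected subunit gene. It had at least 1 count in 42 of 44 Pyr←LP neurons (95.5%, 95% Wilson interval 84.9 to 98.7%) and in 37 of 39 Pyr←ORBvl neurons (94.9%, 83.1 to 98.6%). Its level ran from 0 through a median of 389 to 2060 CPM in Pyr←LP neurons, with a mean of 512 ± 505 CPM (SD, n = 44). In Pyr←ORBvl neurons it ran from 0 through a median of 605 to 7061 CPM, with a mean of 1173 ± 1391 CPM (SD, n = 39). Levels from 0 to 2060 CPM occurred in both types, and every level above that belonged to a Pyr←ORBvl neuron.

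The other AMPA receptor genes were detected in fewer neurons. Gria3, encoding GluA3, had a count in 20 of 44 Pyr←LP neurons (45.5%, Wilson interval 31.7 to 59.9%) and in 29 of 39 Pyr←ORBvl neurons (74.4%, 58.9 to 85.4%). Its level ran from 0 through a median of 0 to 2571 CPM in Pyr←LP neurons and from 0 through a median of 117 to 1403 CPM in Pyr←ORBvl neurons. A single Pyr←LP neuron, C7, held 50.4% of all Gria3 CPM of its type, and the mean of the type was 116 ± 401 CPM (SD, n = 44) with it and 58.9 CPM without it. The Pyr←ORBvl mean was 265 ± 347 CPM (SD, n = 39).

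Gria4, encoding GluA4, had a count in 20 of 44 Pyr←LP neurons (45.5%, Wilson interval 31.7 to 59.9%) and in 11 of 39 Pyr←ORBvl neurons (28.2%, 16.5 to 43.8%). Its median was 0 CPM in both types, its highest value 2136 CPM in Pyr←LP and 356 CPM in Pyr←ORBvl neurons, and its mean 142 ± 354 CPM (SD, n = 44) and 44.4 ± 97.6 CPM (SD, n = 39). The highest value came from Pyr←LP neuron C16, which had only 4214 counts in all, 9 of them on Gria4. Gria1, encoding GluA1, had a count in 16 of 44 Pyr←LP neurons (36.4%, Wilson interval 23.8 to 51.1%) and in 18 of 39 Pyr←ORBvl neurons (46.2%, 31.6 to 61.4%). Its median was 0 CPM in both types, with maxima of 706 and 2853 CPM, and the latter value came from Pyr←ORBvl neuron C13, which held 45.3% of the Gria1 CPM of its type and had 11566 counts in all.

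Among NMDA receptor genes, Grin2b was detected most often, in 35 of 44 Pyr←LP neurons (79.5%, Wilson interval 65.5 to 88.8%) and 35 of 39 Pyr←ORBvl neurons (89.7%, 76.4 to 95.9%). Its level ran from 0 through a median of 60.0 to 2848 CPM in Pyr←LP neurons and from 0 through a median of 173 to 652 CPM in Pyr←ORBvl neurons. The Pyr←LP maximum was again neuron C16, in which it stood for 12 counts. The means of Grin2b lay close together, at 170 ± 429 CPM (SD, n = 44) in Pyr←LP and 194 ± 160 CPM (SD, n = 39) in Pyr←ORBvl neurons, and without neuron C16 the Pyr←LP mean was 108 CPM.

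Grin1, the obligatory subunit gene, had a count in 27 of 44 Pyr←LP neurons (61.4%, Wilson interval 46.6 to 74.3%) and 29 of 39 Pyr←ORBvl neurons (74.4%, 58.9 to 85.4%). Its level ran from 0 through a median of 37.4 to 1935 CPM in Pyr←LP neurons and from 0 through a median of 68.6 to 1236 CPM in Pyr←ORBvl neurons. Grin2a had a count in 17 of 44 Pyr←LP neurons (38.6%, Wilson interval 25.7 to 53.4%) and 24 of 39 Pyr←ORBvl neurons (61.5%, 45.9 to 75.1%). Its level ran from 0 through a median of 0 to 1978 CPM in Pyr←LP neurons and from 0 through a median of 32.4 to 906 CPM in Pyr←ORBvl neurons. The Pyr←LP maximum of Grin2a was in neuron C7, the neuron that also had the highest Gria3.

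**Figure D1:**
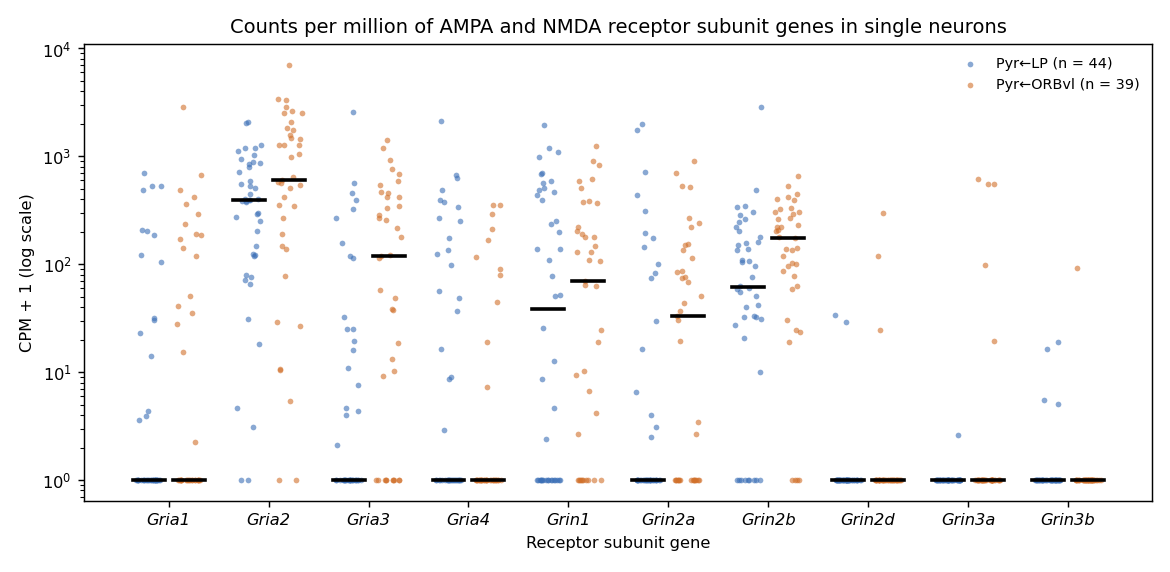
CPM + 1 (log axis) of the 10 subunit genes in each of the 44 Pyr←LP (blue) and 39 Pyr←ORBvl (orange) neurons, with points spread sideways for legibility and a black line at the median of each type. Gria2 was the gene found in nearly all neurons, with medians of 389 and 605 CPM, while Gria1 and Gria4 had a median of 0 CPM in both types.

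The remaining NMDA receptor genes were rare. Grin3a, whose subunit lowers calcium permeability and magnesium block, had counts in 5 of 39 Pyr←ORBvl neurons (12.8%, Wilson interval 5.60 to 26.7%) and in 1 of 44 Pyr←LP neurons (2.27%, 0.402 to 11.8%). In the Pyr←ORBvl neurons its levels were 611, 551, 550, 97.9 and 18.4 CPM, from 217, 78, 486, 66 and 4 counts, and the neurons came from 5 different prefixes. In the Pyr←LP neuron it was a single count, or 1.64 CPM. Grin2d had counts in 2 Pyr←LP neurons, at 32.7 and 28.4 CPM, and in 3 Pyr←ORBvl neurons, at 300, 119 and 23.4 CPM. Grin3b had counts in 4 Pyr←LP neurons, between 4.02 and 18.01 CPM, and in 1 Pyr←ORBvl neuron, at 91.8 CPM. These 3 genes did not reach 5 counts in 10 neurons, the filter set for testing, and are reported as values without a test.

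**Figure D2:**
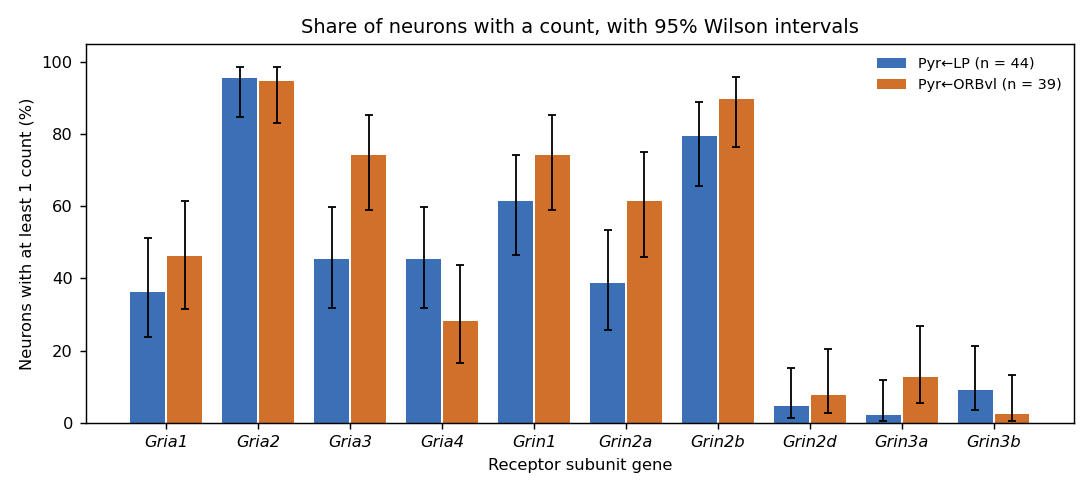
Share of neurons with at least 1 count of each gene, as bars starting at 0, with 95% Wilson intervals for 44 Pyr←LP (blue) and 39 Pyr←ORBvl (orange) neurons. Shares ran from 95.5% and 94.9% for Gria2 down to single neurons for Grin3a in Pyr←LP and Grin3b in Pyr←ORBvl neurons, and the shares of Gria3 stood at 45.5% and 74.4%.

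Levels of different genes were compared per length. On the deposited FPKM scale Gria2 had the highest mean in both types, 23.5 ± 23.1 (SD, n = 44) in Pyr←LP and 53.8 ± 63.8 (SD, n = 39) in Pyr←ORBvl neurons. In Pyr←LP neurons Gria4 (23.1 ± 57.5), Grin1 (17.7 ± 28.4), Gria3 (6.32 ± 21.9), Gria1 (6.02 ± 14.01), Grin2b (5.64 ± 14.2) and Grin2a (5.49 ± 16.3) followed in mean FPKM. In Pyr←ORBvl neurons the order was Gria3 (14.4 ± 18.9), Grin1 (13.5 ± 20.04), Gria1 (13.5 ± 39.2), Gria4 (7.22 ± 15.9), Grin2b (6.43 ± 5.32) and Grin2a (4.68 ± 8.35). Grin2d, Grin3a and Grin3b came last in both types, with a mean FPKM of at most 2.54. From Gria2 to Grin2a, each mean differed from the next by less than the larger of their SDs. That comparison does not use the pairing of genes within a neuron, for which some pairs are given next.

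Neuron by neuron, Gria2 FPKM exceeded Gria4 FPKM in 30 of 44 Pyr←LP neurons and exceeded Gria3 FPKM in 30 of 39 Pyr←ORBvl neurons. Gria4 FPKM was above Grin1 FPKM in 13 Pyr←LP neurons and below it in 22, against the order of their means. Against that order too, Gria1 FPKM was above Grin2b FPKM in 10 Pyr←LP neurons and below it in 26. Likewise, Gria4 FPKM was above Grin2b FPKM in 8 Pyr←ORBvl neurons and below it in 27. Single neurons weighed on the means behind these orders. Without Pyr←LP neuron C16 the mean of Gria4 was 95.6 CPM (142 with it), without neuron C7 that of Gria3 was 58.9 CPM (116 with it), and without Pyr←ORBvl neuron C13 that of Gria1 was 90.6 CPM (161 with it). The gene lengths implied by the FPKM values were 0.913 to 1.98 times the summed exons of GENCODE M21, so the ranks in the middle also depend on the length used. With CPM per kb of GENCODE exons, Gria2 again had the highest mean in both types (32.9 ± 32.5 and 75.5 ± 89.5), and Gria4 moved from the second to the third place in Pyr←LP neurons and from the fifth to the sixth in Pyr←ORBvl neurons.

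Between the types, the count test (edgeR quasi-likelihood, where a call needed an adjusted p below 0.05 and a change of over 2-fold) called 0 of the 7 subunit genes that passed the filter, where it called 170 of 7542 genes tested, or 2.25%. At an unadjusted p under 0.05 it held 1 of the 7, Gria2, where 10.2% of all genes passed that mark. DESeq2 called 0 of the 7, where it called 0.385% of all genes, and held Gria2 (p = 0.00714) and Grin2b (p = 0.0353) at an unadjusted p under 0.05, as it did 364 of 7542 genes. The share of neurons with a count (Fisher's exact test) gave 0 calls of 7 against a background of 0.212%, with Gria3 and Grin2a at an unadjusted p under 0.05 (8.41% of all genes). On the simulated data described with the processing, this test called 0 of 176 genes changed by a log2 fold of 3 at the estimated dispersions. Its 0 calls therefore cannot tell changed from unchanged subunit genes. Log2(FPKM + 1) (limma) gave 0 calls of 7 against 0.65%, with Gria3 alone at an unadjusted p under 0.05 (10.3% of all genes). The calls over all genes were themselves unstable in direction, with 38.8% of them higher in Pyr←ORBvl neurons, against 66.7% when library sizes were used without TMM scaling, 67.7% in all 91 neurons and 70.5% with the prefix as a block.

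Gria2 had a log2 fold change of 1.30 ± 0.51 (SE, 95% interval 0.29 to 2.31), in the direction of Pyr←ORBvl neurons, which did not pass the threshold (edgeR, p = 0.0122, adjusted p = 0.225). The median log2 fold change of all 7542 genes was 0.07. The mean was higher in Pyr←ORBvl neurons in 8 of the 14 prefixes that held both types and lower in the other 6, and the interval no longer lay above 0 with the prefix as a block (0.71, interval -0.68 to 2.10, edgeR p = 0.313) or on counts summed per prefix and type (0.50, interval -1.29 to 2.28, edgeR p = 0.586). On the log2(FPKM + 1) scale the difference was 0.74 ± 0.52 (SE, limma adjusted p = 0.65). The log2 fold change lay between 1.10 and 1.48 when a prefix or one of the neurons highest in a subunit gene was left out.

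Gria3 had the largest difference in detection share of the 7 tested genes. The share of neurons with a count was 28.9 percentage points higher in Pyr←ORBvl neurons (Fisher's exact test, p = 0.0134, adjusted p = 0.437), which did not pass the threshold over all genes. Over all 7542 genes tested the median difference in this share was 4.90 percentage points, also higher in Pyr←ORBvl neurons. After the neurons with at least 100000 counts had been thinned to 100000 counts each, 12 of 35 Pyr←LP and 23 of 30 Pyr←ORBvl neurons kept a Gria3 count (Fisher's exact test, p = 0.00104, adjusted p = 0.164). Without thinning, the same neurons gave 18 of 35 and 24 of 30 (Fisher's exact test, p = 0.0206, adjusted p = 0.574). The thinning was a random draw that was not repeated. Its log2 fold change was 1.17 ± 0.74 (SE, interval -0.29 to 2.63, edgeR adjusted p = 0.689). Without Pyr←LP neuron C7, the neuron highest in Gria3, it was 2.48 (edgeR adjusted p = 0.0554), in a fit chosen after the data were seen. The log2(FPKM + 1) difference was 1.60 ± 0.47 (SE, interval 0.68 to 2.53, limma p = 0.000829, adjusted p = 0.0821). Within prefixes the mean Gria3 CPM was higher in Pyr←ORBvl neurons in 7 of 14 and lower in 7, while the fitted log2 fold change was 2.43 with the prefix as a block (edgeR adjusted p = 0.554) and 2.63 on sums per prefix and type (edgeR adjusted p = 1.0). It was 0.59 with the default size factors of DESeq2 (DESeq2 adjusted p = 1.0), 0.87 without prefix 831 (edgeR adjusted p = 0.999) and 0.90 with the number of detected genes as a covariate (edgeR adjusted p = 0.822).

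Gria4 was the tested gene whose values were negative on all 3 scales, with a log2 fold change of -1.06 ± 0.90 (SE, interval -2.83 to 0.71, edgeR adjusted p = 0.864). Its detection share was lower by 17.2 percentage points in Pyr←ORBvl neurons (Fisher's exact test, adjusted p = 0.702). Among neurons with at least 100000 counts, 18 of 35 Pyr←LP and 9 of 30 Pyr←ORBvl neurons had a Gria4 count, and 18 of 35 and 7 of 30 kept one after thinning, a difference of -28.1 percentage points (Fisher's exact test, p = 0.0241, adjusted p = 0.55). Its mean was lower in Pyr←ORBvl neurons in 8 of 14 prefixes and higher in 4. With the prefix as a block the value was -3.15, which did not pass the threshold either (edgeR adjusted p = 0.262). Gria1 had a log2 fold change of 0.91 ± 0.86 (SE, interval -0.79 to 2.61, edgeR adjusted p = 0.908), which lay between 0.04 and 1.49 when a prefix or one of the neurons highest in a subunit gene was left out.

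For the 3 NMDA receptor genes that passed the filter the intervals spanned 0. The log2 fold change was 0.79 ± 0.64 (SE, interval -0.47 to 2.06) for Grin2b, -0.28 ± 0.71 (SE, interval -1.68 to 1.12) for Grin1 and -0.31 ± 0.81 (SE, interval -1.92 to 1.30) for Grin2a, with edgeR adjusted p of 0.846, 0.98 and 0.98. These intervals include changes of more than 2-fold upward for Grin2b and in both directions for Grin1 and Grin2a. The sign for Grin1 and Grin2a was not stable, since DESeq2 gave 0.15 and 0.21. Grin2a was detected more often in Pyr←ORBvl neurons by 22.9 percentage points, which did not pass the threshold (Fisher's exact test, p = 0.0486, adjusted p = 0.581, beside a median of 4.90 points over all genes), and among neurons with at least 100000 counts the shares were 16 of 35 and 18 of 30 before thinning and 14 of 35 and 15 of 30 after it. Mean CPM was higher in Pyr←ORBvl neurons in 8 of 14 prefixes for each of Grin1, Grin2a and Grin2b.

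**Figure D3:**
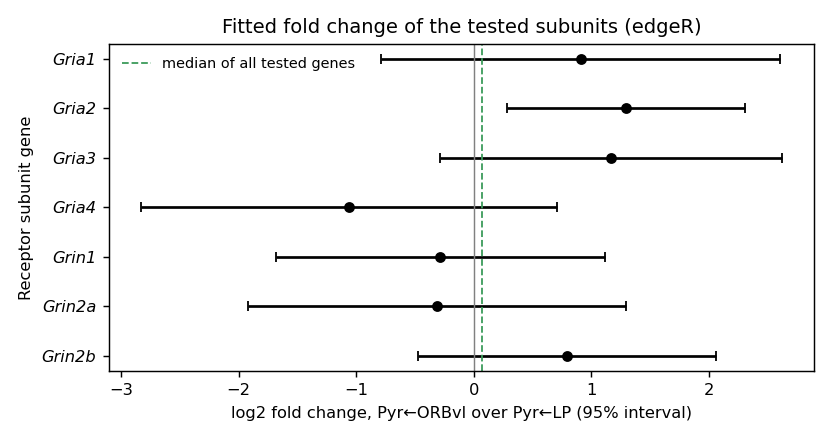
Fitted log2 fold change (Pyr←ORBvl over Pyr←LP, edgeR on counts of 83 neurons) of the 7 tested subunit genes, with points for the estimate, bars for its 95% interval, a grey line at 0 and a dashed green line at the median of all 7542 genes tested, 0.07. The interval of Gria2, 0.29 to 2.31, lay above 0 and those of the other 6 genes included 0.

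The subunit genes were next read as combinations of genes with a count within a neuron. A gene without a count may still be expressed, and this could not be told apart from absence. Slc17a7, for comparison, had counts in 32 of 44 Pyr←LP and 31 of 39 Pyr←ORBvl neurons. At least 1 AMPA receptor gene had a count in 43 of 44 Pyr←LP and 39 of 39 Pyr←ORBvl neurons, and in 1 and 2 of these neurons Gria2 was not among them. Gria2 was the only AMPA receptor gene with a count in 7 Pyr←LP and 5 Pyr←ORBvl neurons, and all 4 genes had counts in 1 Pyr←LP and 8 Pyr←ORBvl neurons. The number of the 10 subunit genes with a count had a median of 4 in Pyr←LP and 5 in Pyr←ORBvl neurons. Over the 83 neurons this number rose with the number of detected genes (Spearman's rho 0.695) and with total counts (rho 0.309), all of which come from the same libraries. Detected genes differed between the types, as given above, and their part in the co-detection counts was not tested.

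Gria2 made up a median of 52.7% of the summed FPKM of Gria1 to Gria4 in 43 Pyr←LP neurons (quartiles 29.3 and 91.5%) and 68.7% in 39 Pyr←ORBvl neurons (30.8 and 86.2%). With CPM per kb of GENCODE exons the medians were 56.5 and 62.2%. In both types the share ran from 0 to 100%. Gria2 had the highest FPKM of the AMPA receptor genes in 24 Pyr←LP and 27 Pyr←ORBvl neurons. Gria4 had the highest in 12 and 4 neurons, Gria3 in 4 and 6, and Gria1 in 3 and 2. By CPM per kb, Gria4 was the highest in 7 and 3 neurons and Gria3 in 8 and 8.

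**Figure D4:**
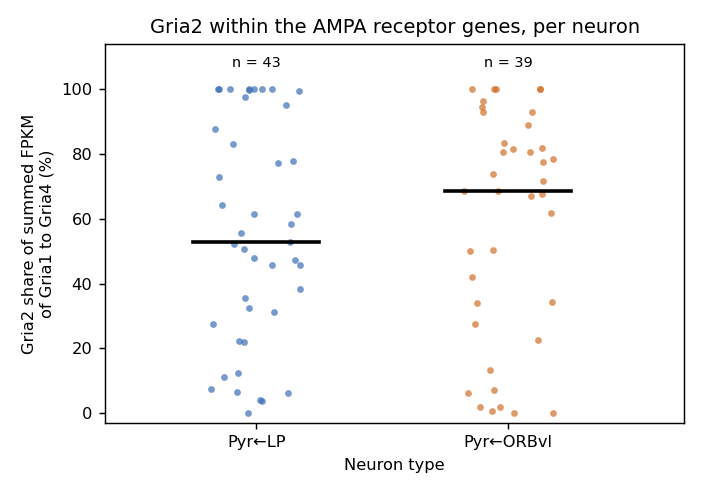
Gria2 as a percentage of the summed FPKM of Gria1, Gria2, Gria3 and Gria4 in each neuron with a count of any of them (43 Pyr←LP and 39 Pyr←ORBvl neurons), with a black line at the median of each type. Both types filled the range from 0 to 100%, around medians of 52.7 and 68.7%.

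Counts of Gria3 and Gria4 were also read together, for a pattern that was noticed in the values and carries no test. Of the 24 Pyr←LP neurons without a Gria3 count, 12 had Gria4 counts, and these 12 neurons came from 8 prefixes, with Gria4 between 7.68 and 2136 CPM (median 304). Of the 10 Pyr←ORBvl neurons without Gria3, 0 had a Gria4 count, which allows a share of up to 30% (taken as 3 neurons of the total, a wider limit than the Wilson interval used for the other shares), and all 11 Pyr←ORBvl neurons with Gria4 had Gria3 as well. Of the 20 Pyr←LP neurons with Gria3, 8 also had Gria4. After thinning to 100000 counts, 11 of 23 Pyr←LP neurons and 0 of 7 Pyr←ORBvl neurons without Gria3 had a Gria4 count, where 0 of 7 allows a share of up to 42.9% by the same limit. Among neurons with a count of a GABAergic gene other than Lamp5, Gria3 was detected in 10 of 18 Pyr←LP and 13 of 18 Pyr←ORBvl neurons and Gria4 in 6 and 6 of 18. Among neurons with none, Gria3 was detected in 10 of 26 and 16 of 21, and Gria4 in 14 of 26 and 5 of 21. By the same split, Gria1 was detected in 8 of 18 Pyr←LP and 13 of 18 Pyr←ORBvl neurons with such a count. With none, it was detected in 8 of 26 Pyr←LP and 5 of 21 Pyr←ORBvl neurons, the opposite direction.

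For the NMDA receptor, a count of Grin2a and of Grin2b was found together in 15 Pyr←LP and 23 Pyr←ORBvl neurons. Grin2b without Grin2a was found in 20 and 12 neurons, Grin2a without Grin2b in 2 and 1, and neither in 7 and 3. Where at least 1 of the pair had a count, Grin2b FPKM exceeded Grin2a FPKM in 27 of 37 Pyr←LP and 26 of 36 Pyr←ORBvl neurons. Grin1 had a count beside Grin2a or Grin2b in 22 and 28 neurons, and Grin2a or Grin2b had a count without Grin1 in 15 and 8. GluN1 is needed in every NMDA receptor. Among neurons with at least 100000 counts, Grin1 had a count in 21 of 35 Pyr←LP and 23 of 30 Pyr←ORBvl neurons, beside 27 of 44 and 29 of 39 in all neurons tested. Grin1 without Grin2a and Grin2b was found in 5 Pyr←LP neurons and 1 Pyr←ORBvl neuron.

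**Figure D5:**
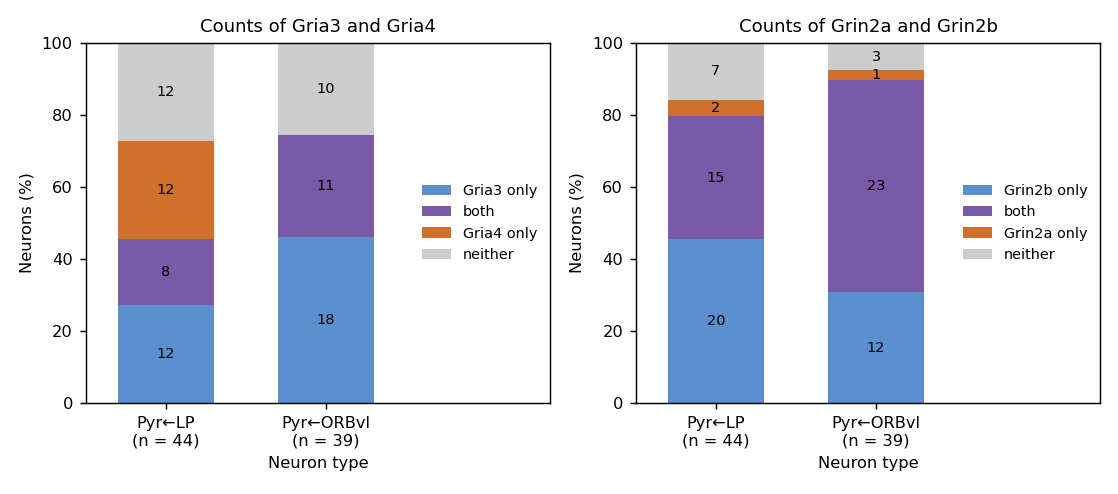
Stacked shares of 44 Pyr←LP and 39 Pyr←ORBvl neurons by which genes of a pair had at least 1 count, for Gria3 and Gria4 (left) and for Grin2a and Grin2b (right), with the number of neurons written in each block. Gria4 without Gria3 was found in 12 Pyr←LP and 0 Pyr←ORBvl neurons, and Grin2a without Grin2b in 2 and 1.

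Genes that work with these receptors were examined as lists. Of 19 AMPA receptor auxiliary subunit genes, 10 were tested and 1 was called, lower in Pyr←ORBvl neurons, against 1.38% of all genes in that direction. This was Olfm1, a secreted olfactomedin protein found in AMPA receptor complexes, with levels from 0 through a median of 757 to 2852 CPM in Pyr←LP neurons and from 0 through a median of 156 to 2421 CPM in Pyr←ORBvl neurons. Its log2 fold change was -2.21 ± 0.54 (SE, edgeR adjusted p = 0.00888, DESeq2 adjusted p = 6.72e-05), while limma on log2(FPKM + 1) gave an adjusted p of 0.0738. The call was lost without TMM scaling (-1.69, edgeR adjusted p = 0.0681), in all 91 neurons (-1.59, adjusted p = 0.0776), in these with a near-identical pair of libraries averaged (-1.61, adjusted p = 0.0686), with the prefix as a block (-2.11, adjusted p = 0.064), on sums per prefix and type (-2.32, adjusted p = 0.715), and without prefix 822 (-1.64, adjusted p = 0.121), 830 (-1.81, adjusted p = 0.102) or 831 (-1.83, adjusted p = 0.0948). The median log2 fold change of the 10 tested genes was -0.26, beside 0.07 for all genes.

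Of 29 genes of postsynaptic scaffolds and AMPA receptor trafficking, 20 were tested and 0 were called by edgeR, DESeq2, Fisher's exact test or limma, with 4 at an unadjusted edgeR p under 0.05 (10.2% of all genes) and a median log2 fold change of -0.11. The smallest p belonged to the neuronal pentraxin receptor gene Nptxr (-3.05 ± 1.00, edgeR adjusted p = 0.0829) and to Nptx2, whose secreted pentraxin clusters AMPA receptors (-2.80 ± 0.95, edgeR adjusted p = 0.102). With the prefix as a block Nptxr passed the threshold (-4.06, edgeR adjusted p = 0.0403), and on sums per prefix and type it did not (-3.77, edgeR adjusted p = 1.0). Nptxr had counts in 15 of 44 Pyr←LP and 8 of 39 Pyr←ORBvl neurons, and Nptx2 in 20 and 9.

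No gene of the other 3 lists was called by any of these 4 tests. The kainate, delta and other NMDA receptor genes with the kainate auxiliary subunits had 3 of 10 genes tested, with 0 at an unadjusted edgeR p under 0.05. Neto1, an auxiliary subunit of kainate receptors, stood at 1.81 ± 0.97 (edgeR adjusted p = 0.552) and the kainate receptor gene Grik2 at 1.12 ± 0.93 (edgeR adjusted p = 0.855). Of 8 metabotropic glutamate receptor genes 4 were tested and 1 was at an unadjusted p under 0.05. This was Grm7, a presynaptic receptor, at -1.83 ± 0.86 (edgeR adjusted p = 0.404), followed by Grm5, a postsynaptic receptor coupled to calcium release, at 0.92 ± 0.82 (edgeR adjusted p = 0.892). Of the RNA editing enzymes, Adar (-1.62 ± 0.92, edgeR adjusted p = 0.6) and Adarb1, which edits the Q/R site of Gria2 (-0.36 ± 0.96, edgeR adjusted p = 0.98), were both tested, with 0 at an unadjusted p under 0.05. Adarb1 had counts in 7 of 44 Pyr←LP and 11 of 39 Pyr←ORBvl neurons.

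In the 8 neurons left out by the exclusion rule, Gria2 and Gria3 had counts in 8 of 8, Grin2a and Grin2b in 7 of 8, Grin1 in 5 of 8 and Gria1 and Gria4 in 4 of 8. A pair of these libraries, Pyr←ORBvl C5 and C11, was nearly identical (Pearson's r 0.993 on log2 CPM over 3505 genes), although the names of these neurons carry different prefixes. With all 91 neurons, 0 of 7 subunit genes were called, with the pair entered separately or averaged as 1. Gria2 then had a log2 fold change of 1.34 (edgeR adjusted p = 0.144) and Gria3 of 1.43 (edgeR adjusted p = 0.474), and Gria3 was detected in 23 of 47 Pyr←LP and 34 of 44 Pyr←ORBvl neurons.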

How the data were processed

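The RNA of each neuron was amplified with a full-length kit based on Smart-seq2, which carries no molecular identifiers. The Wilson intervals for shares treat neurons as independent draws and leave out any likeness of neurons from the same mouse. The authors aligned reads to GRCm38 (mm10) with STAR 2.5.3 (version per the submitters' processing notes), removed PCR duplicates, and counted uniquely aligned reads on RefSeq genes with GenomicAlignments. The deposited counts are raw. The authors also deposited FPKM values, and the tool behind them is not given in the sources used here. Each FPKM of a subunit gene equalled its count divided by the total count and by 1 fixed length per gene.

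Groups came from the cell subtype labels. The set of 10 genes was proposed, and the gene lists and tests were chosen, with earlier results of these data known. Counts were tested with edgeR 4.0.16 (TMM, robust quasi-likelihood fit) in R 4.3.3 on genes that reached 5 counts in 10 or more neurons. The share of neurons with a count was tested with a two-sided Fisher's exact test and log2(FPKM + 1) with limma 3.58.1 (trend, robust). All p-values were adjusted over all genes tested (Benjamini-Hochberg). DESeq2 1.42.0 was run as an alternative with poscounts size factors. The SE of an edgeR log2 fold change was taken as its absolute value over the root of F. All 10 members are named. From each list the genes called by edgeR are named, or else the 2 with the smallest p.

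The methods were tested on simulated data for this comparison, with 200 genes changed by a log2 fold of 3. At a dispersion of 0.5, edgeR called 200 of 200 changed and 1 of 7334 unchanged genes, and Fisher's exact test on detection shares called 0 of both. At dispersions estimated from these neurons (median 12.31), edgeR called 97 of 176 changed and 109 of 6510 unchanged genes, DESeq2 57 and 34, limma 18 and 1, and Fisher's exact test 0 and 0. Thinning, marker sums and sequences came from Python 3.11.15 with biopython 1.88, scipy 1.17.1, pandas 2.3.3 and numpy 2.4.6, and plots from matplotlib 3.10.9. Results for some of the marker genes are not reported here.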

Additional observations from a re-analysis of the deposited data

How the results depend on the processing

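The count of subunit genes called was 0 in each alternative of the 3 tests but one. With no filter on low counts, where edgeR called 4950 of 18100 genes (27.3%), 2 of the 10 subunit genes were called, Grin2d and Grin3a, which rest on counts in 5 and 6 of the 83 neurons. It stayed at 0 (range 0 to 0) when each prefix, or the neuron highest in each tested gene, was left out (the latter chosen after the data were seen). The sign of Grin1 turned with DESeq2 (0.15) and on sums per prefix and type (0.29), and that of Grin2a with DESeq2 (0.21), with the default size factors of DESeq2 (0.98, chosen after the data were seen), in all 91 neurons (0.048), with the prefix as a block (1.61) and on sums (2.06). Leaving out a prefix or neuron gave -0.63 to 0.068 for Grin1, -0.95 to 0.42 for Grin2a, and -3.39 to 2.18 percentage points for the detection share of Gria2, which was 2.51 at a minimum of 5 counts. Adar turned on sums (0.31). Adarb1 turned with DESeq2's default size factors (0.43), without TMM (0.092), without a filter (0.019), in all 91 neurons (0.11, or 0.19 with the near-identical pair averaged), in neurons with 100000 counts or more (0.22) and with the block (1.18), and lay between -0.50 and 0.28 with a prefix or neuron left out. Nptxr passed the threshold without a filter and with the block (-4.06) but not on sums (-3.77), Nptx2 without a filter and without prefix 913 (-3.93), and Neto1 without prefix 907 (3.72). The cause was not tested.

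Over all genes, edgeR called 170, against 29 with DESeq2, 43 with its default size factors, 87 without TMM, 2 with filterByExpr, 106 with all 91 neurons and the pair averaged, 43 in neurons with 100000 counts or more, 3 on sums, and 40 to 188 with a prefix or neuron left out (40 without prefix 822 or 830 and 50 without 831). Fisher's exact test called 16, against 31 at a minimum of 5 counts, 5 in the unthinned neurons with 100000 counts or more, and 4 to 16 with a prefix left out (under 11 without prefix 822, 823, 830, 831, 902, 907, 915, 916 or 919). Limma called 49, against 31 without a filter. The other 3 subunit genes were left out by the filter on low counts, and without it their log2 fold changes were 2.85 for Grin2d, 6.89 for Grin3a and 1.26 for Grin3b.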
